A study of Arabidopsis thaliana with 14 samples.

Results

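Transcripts of 9 antioxidant enzymes were followed through embryo development in Arabidopsis thaliana. The list was set by name and held 10 loci: the 1-cysteine peroxiredoxin PER1, the catalases CAT1, CAT2 and CAT3, the 2-cysteine peroxiredoxins 2-Cys Prx A and B, the ascorbate peroxidases APX1 and APX6, the copper/zinc superoxide dismutase CSD1 and the glutathione reductase GR1. Of these, 9 were among the 25414 named genes of the table, and CAT3 was not analysed here. The samples were whole embryos of ecotype col-0 at 7 stages (zygote, octant, globular, heart, torpedo, bent and mature), with 2 RNA-seq libraries per stage and 14 in all. The labels give no treatment, allele or age beyond the stage, and describe the libraries of a stage as biological replicates. Values are normalised read counts, which is to say reads scaled by the authors to a total of 20000000 per library. Both values of a stage are printed in the order replicate 1, replicate 2.

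Hydrogen peroxide and superoxide are by-products of photosynthesis, respiration and fat breakdown, and plants remove them with a chain of enzymes. Superoxide dismutases turn superoxide into hydrogen peroxide. Catalases break hydrogen peroxide down in peroxisomes without a reductant, while ascorbate peroxidases and peroxiredoxins reduce it with electrons from ascorbate or from thiols. Glutathione reductase keeps glutathione reduced so that ascorbate can be regenerated. PER1 is known as a nuclear and cytosolic 1-cysteine peroxiredoxin of seeds, where its transcript accumulates during maturation and in dormant seeds. The embryo of Arabidopsis is green from the heart to the bent stage, then loses its chlorophyll and dries.

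The libraries held between 6078186 and 30803336 reads, so that a single read was worth from 0.649 to 3.29 normalised reads. A further 103 entries without a gene identifier took 9.15 to 26.3% of the reads and were left out. The embryo markers, 7 of 7 in the table, summed to 35118 and 26015 normalised reads at the zygote stage and to 2469 and 1476 at maturity. Most of the sum was LEC1 in zygotes (30064 and 21555) and ATML1 at maturity (2087 and 1011). The markers did not move alike: WOX8 was at 0 in bent and mature embryos. WOX2 was higher at maturity (153 and 208) than in zygotes (33.9 and 35.4), and FUS3 had its highest stage mean at the bent stage (2826). Seed coat markers, 4 of 8 in the table, were also present: they summed to 4341 and 2782 at the zygote stage, 15057 and 15916 at the octant stage, 388 and 303 at the globular stage, and 4.69 and 4.89 at maturity. Endosperm markers, 7 of 8 in the table, lay between 9.39 and 488, and the 2 pollen markers between 5.62 and 1985. The highest library was octant replicate 1 for the endosperm and pollen lists and octant replicate 2 for the seed coat list. Endosperm markers in octant replicate 2 (338) lay below both heart libraries (374 and 416). The median tested gene also moved: its log2 change was 0.92 from zygote to octant, -0.63 to globular, 0.59 to heart, 0.19 to torpedo, -0.54 to bent, and -0.57 to mature embryos. Changes are therefore also given with each library centred on its median gene. Centring subtracts 1.14 from the log2 change of every gene at the octant step, -0.79 at the globular, 0.83 at the heart, 0.44 at the torpedo, -0.64 at the bent and -1.38 at the mature step.

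Differences between stages were tested with limma on log2(value + 4) over all 14 libraries, with Benjamini-Hochberg adjustment over the 18744 genes that passed a filter on low values. All 9 genes passed that filter. A fold is a ratio of stage means, and a log2 change is the fitted difference on the log2(value + 4) scale, which understates the change of low genes. Each of the 9 genes varied over the 7 stages by limma's F test, with adjusted p between 8.45e-11 for PER1 and 0.000471 for APX6. The same test called 97.1% of all tested genes, so that variation over the stages is not particular to these 9. In bulk embryos, fewer cells of a type and less RNA per cell cannot be told apart.

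The bases before the transcription start are shown for PER1, which rose most between zygote and mature embryos, for APX1 and CSD1, which fell most, and for CAT2, the catalase that was highest at maturity. These 4 windows hold no other annotated gene. The sequences are the 250 bases upstream of the annotated start, 5′ to 3′ on the gene's strand, from the RefSeq copy of TAIR10.1. Capitals mark a match to ACGTG, the core of the abscisic acid response element, or to TGACNNNGC, the antioxidant response element described in mammals, on either strand. CATGCA, the RY element bound by seed B3 factors, was also searched.
PER1, chr1:17780179-17780428, plus strand: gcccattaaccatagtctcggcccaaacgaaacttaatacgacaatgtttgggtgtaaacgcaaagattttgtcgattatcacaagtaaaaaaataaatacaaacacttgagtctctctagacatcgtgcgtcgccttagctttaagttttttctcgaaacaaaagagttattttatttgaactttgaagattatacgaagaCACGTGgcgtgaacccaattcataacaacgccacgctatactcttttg
CAT2, chr4:16703505-16703754, minus strand: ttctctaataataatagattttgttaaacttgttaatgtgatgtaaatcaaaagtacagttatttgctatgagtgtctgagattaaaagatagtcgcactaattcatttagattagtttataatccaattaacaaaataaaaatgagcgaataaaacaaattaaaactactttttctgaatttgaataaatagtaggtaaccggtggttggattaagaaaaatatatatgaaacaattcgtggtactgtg
APX1, chr1:2437031-2437280, plus strand: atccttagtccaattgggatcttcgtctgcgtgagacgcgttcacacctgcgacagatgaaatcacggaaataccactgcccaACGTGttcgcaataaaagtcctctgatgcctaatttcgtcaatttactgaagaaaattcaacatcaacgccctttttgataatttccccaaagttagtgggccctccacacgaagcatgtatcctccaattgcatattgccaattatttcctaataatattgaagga
CSD1, chr1:2826810-2827059, plus strand: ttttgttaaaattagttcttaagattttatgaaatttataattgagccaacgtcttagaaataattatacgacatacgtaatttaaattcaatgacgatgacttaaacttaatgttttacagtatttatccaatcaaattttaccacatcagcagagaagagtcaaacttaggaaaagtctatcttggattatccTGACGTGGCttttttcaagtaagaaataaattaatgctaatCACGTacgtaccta
In PER1, ACGTG was present on both strands as the overlapping palindrome CACGTG, between 48 and 43 bases before the start. CSD1 had 2 matches to ACGTG, at 53 to 49 and 14 to 10 bases before the start, and the first of them lay inside its single TGACNNNGC match. APX1 had 1 match to ACGTG, at 167 to 163 bases before the start, and CAT2 had no match to any of the 3 motifs. Among the other genes CAT1 and GR1 each had 1 match to ACGTG, and GR1 had 1 to TGACNNNGC. The windows of 2-Cys Prx A, 2-Cys Prx B and APX6 had none, and CATGCA was in none of the 9 windows. Over the windows of 27443 protein-coding genes, 22.9% held ACGTG, 8.43% held CATGCA and 4.02% held TGACNNNGC. A match is a run of letters, and binding was not measured.

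PER1 (AT1G48130, chromosome 1, 17780429 to 17781727, plus strand) was at background until the torpedo stage and among the most abundant transcripts at the bent stage. It had 3.88 and 10.3 normalised reads in zygotes, 4.64 and 6.76 in octant embryos, 19.7 and 6.36 in globular embryos and 0 in both heart libraries. It then had 75.4 and 93.5 in torpedo embryos, 16187 and 18131 in bent embryos, and 8356 and 8559 in mature embryos. The 4 early stages rested on 0 to 7 reads per library, and every torpedo, bent and mature library lay above every earlier one. The 2 heart libraries held 0 PER1 reads, which allows up to 4.53 and 3.003 normalised reads at a floor of 3 reads per library, a limit that covers counting error only. Torpedo embryos were at least 22.4-fold higher than that floor, and the change from heart to torpedo had an adjusted p of 1.99e-05 by limma. From torpedo to bent the stage mean rose 203-fold, from 84.5 to 17159 (SD 1375, n = 2), a log2 change of 7.61 (SE 0.47, limma adjusted p = 1.3e-07). Counted per kilobase of exon, PER1 ranked 74 and 56 among 24932 genes in the bent libraries and 261 and 253 in the mature libraries.

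PER1 in mature embryos was 2.03-fold below its bent level, with no overlap between the libraries. The log2 change of -1.02 (SE 0.47) did not pass limma's test (adjusted p = 0.0755), and it was 0.36 after median-centring. With a pseudocount of 16 (adjusted p = 0.0193) or with equal totals over named genes (0.0405) the fall passed, as it did without globular replicate 1 (0.0421) or 2 (0.0411). Mature embryos stayed 1191-fold above zygotes (log2 change 9.64, SE 0.47, limma adjusted p = 7.07e-10). The fall from globular to heart embryos also passed the test (log2 change -1.97, adjusted p = 0.00525), on 6 and 5 reads in the globular libraries and 0 in both heart libraries. That call was lost with a pseudocount of 16 (limma adjusted p = 0.0761) and without globular replicate 1 (0.0558).

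**Figure D1:**
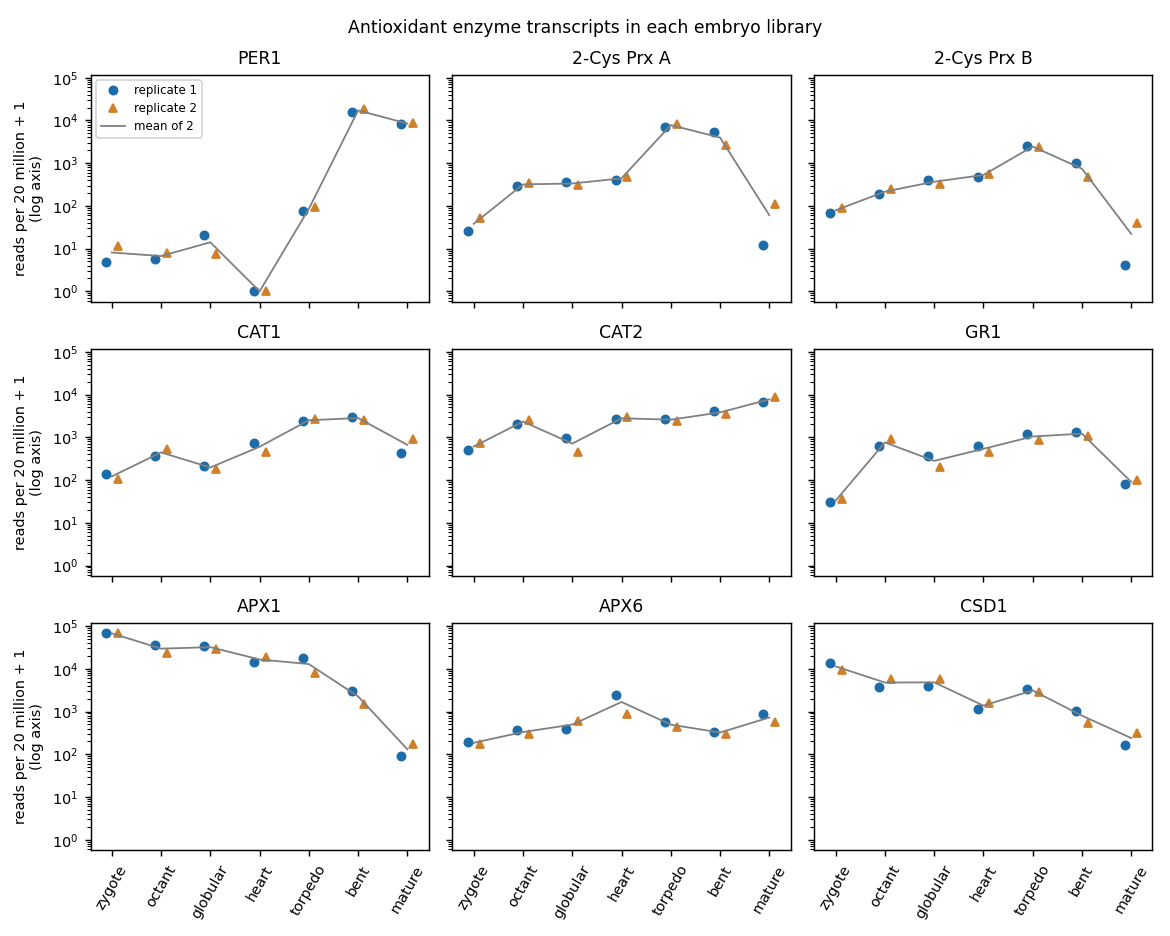
Normalised read counts plus 1 (reads per 20000000, log axis) of the 9 genes in each library, by embryo stage. Circles and triangles are replicates 1 and 2, and the line joins the stage means. PER1 rises from 75.4 and 93.5 at the torpedo stage to 16187 and 18131 at the bent stage, while APX1 falls from 67124 and 68044 in zygotes to 89.2 and 170.2 at maturity.

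The 5 genes whose stage means on the log2(value + 4) scale followed PER1 most closely were found among 15182 tested genes with a stage mean of 100 or more. They were AT5G22470, annotated as poly ADP-ribose polymerase 3, MES8 (methyl esterase 8), AT5G05965, AT1G15190 and DOG1 (delay of germination 1, a regulator of seed dormancy). Their Pearson correlations with PER1 over the 7 stage means ran from 0.980 for DOG1 to 0.992 for AT5G22470, in the same 14 libraries. DOG1 had a stage mean of 11.5 at the torpedo stage, 1927 at the bent stage and 1415 at maturity. AT5G22470 stood at 136, 5086 and 8632 in the same stages, so that it was highest at maturity where PER1 was highest at the bent stage.

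**Figure D2:**
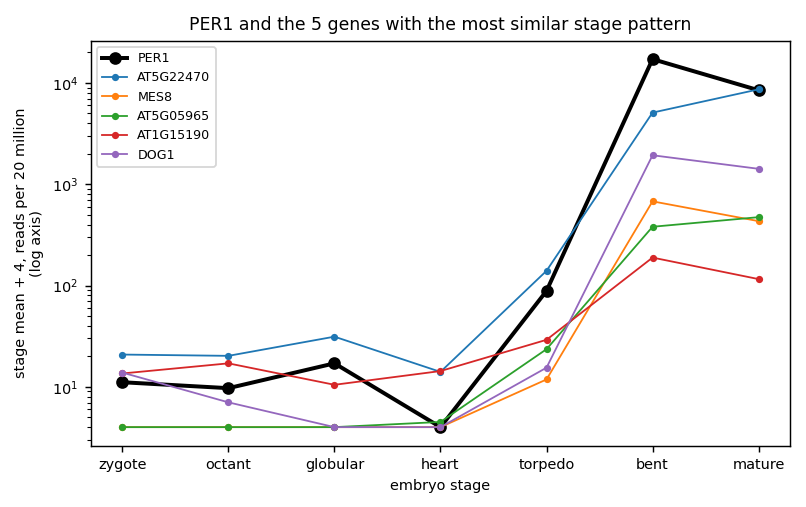
Stage means plus 4 of PER1 (black) and the 5 genes with the highest correlation to it (reads per 20000000, log axis) against embryo stage. All 6 lines climb between the torpedo and bent stages; PER1 goes from 84.5 to 17159.

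The 2-cysteine peroxiredoxins, chloroplast enzymes that reduce hydrogen peroxide with thioredoxins and with the reductase NTRC, rose to a torpedo peak and were nearly gone at maturity. 2-Cys Prx A (AT3G11630) had 24.2 and 50.1 normalised reads in zygotes, 297 and 338 in octant, 362 and 304 in globular and 411 and 470.4 in heart embryos. It reached 7104 and 8475 in torpedo embryos, then 5285 and 2669.7 in bent and 10.95 and 109 in mature embryos. The torpedo libraries lay above all others, and the mature libraries overlapped the zygote libraries. Its mean rose 8.54-fold from zygote to octant (log2 change 3.04, SE 0.67, limma adjusted p = 0.00138) and 17.7-fold from heart to torpedo (log2 change 4.13, SE 0.67, limma adjusted p = 0.000524). Its fall from bent to mature was 66.5-fold (log2 change -6.52, SE 0.67, limma adjusted p = 1.29e-06). The change from torpedo to bent did not pass (log2 change -1.05, adjusted p = 0.265). The comparison of mature embryos with zygotes rested on which mature library was used: the log2 change was 0.07 with both, 1.53 without mature replicate 1 (limma adjusted p = 0.0156) and -1.39 without mature replicate 2 (0.0253).

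2-Cys Prx B (AT5G06290) had 66.9 and 88.5 normalised reads in zygotes, 186 and 243 in octant, 401 and 332 in globular and 486 and 569 in heart embryos. It stood at 2469.8 and 2429 in torpedo, 1019 and 462 in bent and 3.13 and 39.1 in mature embryos. Its peak was thus also at the torpedo stage, and its mature libraries lay below its zygote libraries. The rise from heart to torpedo was 4.64-fold (log2 change 2.21, SE 0.62, limma adjusted p = 0.0177) and the fall from bent to mature was 35.1-fold (log2 change -5.30, SE 0.62, limma adjusted p = 4.31e-06). The torpedo rise did not pass without heart replicate 1 (adjusted p = 0.0971) or 2 (0.0676), without torpedo replicate 1 (0.0860) or 2 (0.0834), or with a pseudocount of 1 (0.0526) in limma. The fall from torpedo to bent (log2 change -1.83, limma adjusted p = 0.0405) did not pass in 16 of 25 alternatives, among them median-centring (0.146) and leaving out bent replicate 2 (0.308), torpedo replicate 1 (0.152) or torpedo replicate 2 (0.129). It also did not pass without either library of the zygote, octant or heart stage (limma adjusted p 0.0546 to 0.0551). Mature embryos lay 3.68-fold below zygotes (log2 change -2.21, limma adjusted p = 0.00578), a call lost without mature replicate 1 (0.126). At the octant step its log2 change of 1.42 did not pass (limma adjusted p = 0.0623), but it passed without mature replicate 1 (0.00674) or 2 (0.00720).

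The balance between both 2-cysteine peroxiredoxins shifted over the stages. Per kilobase of exon, 2-Cys Prx A stood at 0.446 and 0.697 times 2-Cys Prx B in zygotes, 1.04 and 1.02 times in heart embryos, 3.54 and 4.29 times in torpedo embryos, and 6.38 and 7.10 times in bent embryos. In mature replicate 2 it was 3.41 times as high, on 111 and 40 reads, while replicate 1 held only 7 reads of A and 2 of B. The ratio was tested on the log2 scale with 4 added to each value. An exact permutation test over all 135135 divisions of the 14 libraries into 7 pairs gave p = 7.4e-06, the smallest it can give, and 2.22e-05 adjusted over 3 family ratios. Without the added 4, where the scaling of a library cancels, the exact permutation p was 3.7e-05 (adjusted 0.000111). A neighbouring gene on the opposite strand, AT3G11620, overlaps the annotated 2-Cys Prx A by 172 bases, and the library kit does not mark strand. That neighbour was highest in bent embryos, with a stage mean of 1184, and lowest at maturity with 20.2, and its part in the 2-Cys Prx A values was not tested.

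Of the catalases, CAT2 was highest at maturity and CAT1 at the bent stage. CAT2 (AT4G35090), in leaves the main catalase of photorespiration, had 495 and 723 normalised reads in zygotes, 2071 and 2615 in octant, 964 and 461 in globular and 2630.0 and 2965 in heart embryos. It had 2752 and 2426 in torpedo, 4172 and 3482 in bent and 6729 and 8754 in mature embryos. Its mature libraries lay above all others, and its zygote and globular libraries overlapped at the bottom. From zygote to mature the mean rose 12.7-fold (log2 change 3.67, SE 0.38, limma adjusted p = 8.68e-07). The fall from octant to globular (log2 change -1.80, limma adjusted p = 0.00202) and the rise from globular to heart (2.06, 0.00120) passed in each alternative run. From torpedo to bent the log2 change of 0.56 did not pass in limma, but a rise passed after median-centring (1.20, limma adjusted p = 0.0253), with upper-quartile scaling (1.15, 0.0384), in edgeR (1.20, 0.0493) and in DESeq2 (1.24, 0.00402). The rise from bent to mature was 2.02-fold (log2 change 1.01, SE 0.38, limma adjusted p = 0.0346) and was larger after median-centring (2.39). It did not pass without bent replicate 1 (limma adjusted p = 0.0608) or 2 (0.137), without mature replicate 2 (0.152), or with equal totals over named genes (0.0658).

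CAT1 (AT1G20630), a catalase known from seeds and pollen, peaked at the torpedo and bent stages. Its normalised reads were 136 and 106 in zygotes, 357 and 529 in octant, 207 and 185 in globular and 744 and 461 in heart embryos. They were 2355 and 2674 in torpedo, 3058 and 2600.1 in bent and 430.2 and 902 in mature embryos. Torpedo and bent libraries overlapped, and lay above all others. From heart to torpedo CAT1 rose 4.17-fold (log2 change 2.09, SE 0.40, limma adjusted p = 0.00175), and mature embryos stood 5.51-fold above zygotes (log2 change 2.34, SE 0.40, limma adjusted p = 0.000112). The fall from bent to mature (log2 change -2.17, limma adjusted p = 0.000268) was -0.79 after median-centring (0.0640). The fall to the globular stage (log2 change -1.14, limma adjusted p = 0.0360) did not pass without octant replicate 2 (0.238) or without globular replicate 1 (0.0713) or 2 (0.131), and the rise to the heart stage (1.56, 0.00797) did not pass without heart replicate 1 (0.0893). Neither passed after median-centring (limma adjusted p = 0.488 and 0.140).

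At the octant step CAT1 and CAT2 rose together, by 3.66-fold and 3.85-fold. Their log2 changes of 1.82 (limma adjusted p = 0.00134) and 1.95 (0.000594) became 0.68 (0.124) and 0.81 (0.0665) after median-centring, and neither passed in edgeR or DESeq2. The summed seed coat markers had their maximum in the same octant libraries and fell at the globular stage, as both catalases did. Most of the octant sum was BAN (12878 and 13520). AHA10 and MYB5 also rose at the octant step, whereas INO was higher in zygotes (672 and 849) than in octant embryos (546 and 646). The part of seed coat RNA in the catalase changes was not tested.

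CAT1 and CAT2 did not keep one proportion. Per kilobase of exon, CAT1 stood at 0.341 and 0.183 times CAT2 in zygotes, 1.06 and 1.37 times in torpedo embryos, 0.911 and 0.928 times in bent embryos, and 0.0795 and 0.128 times in mature embryos. CAT2 thus made up 74.6 and 84.6% of the sum of both in zygotes, 48.5 and 42.2% in torpedo embryos and 92.6 and 88.7% in mature embryos. The ratio differed over the stages by the exact permutation test (p and adjusted p = 0.00157, and 0.00170 without the added 4). An opposite-strand neighbour, AT4G35080, overlaps CAT2 by 95 bases.

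**Figure D3:**
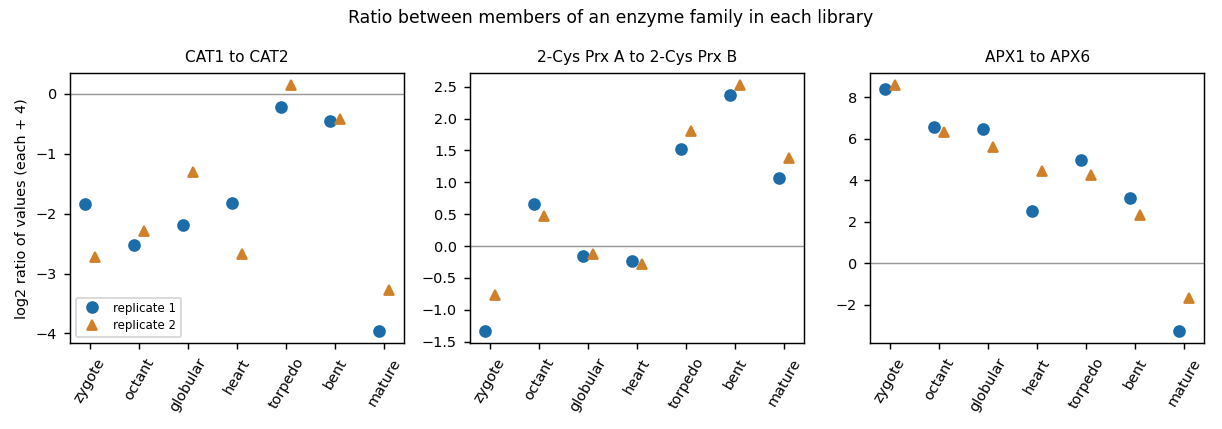
Log2 ratio of 2 enzymes of a family in each library (each value plus 4, not divided by length), by embryo stage, with circles and triangles for replicates 1 and 2 and a grey line at equal values. The APX1 to APX6 ratio is above 0 in every stage but the mature one, and the 2-Cys Prx A to B ratio is highest in bent embryos.

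Among the ascorbate peroxidases, which use ascorbate to reduce hydrogen peroxide, APX1 started as one of the most abundant transcripts and ended low. APX1 (AT1G07890), the main cytosolic form, had 67124 and 68044 normalised reads in zygotes, 35439 and 23854 in octant, 34879 and 29336 in globular and 14095 and 18968 in heart embryos. It had 17715 and 8108 in torpedo, 2980.0 and 1535 in bent and 89.2 and 170.2 in mature embryos. The zygote libraries lay above all others, octant overlapped globular and heart overlapped torpedo, and the mature libraries lay below all others. Per kilobase of exon it ranked 36 and 33 among 24932 genes in zygotes and 7968 and 6612 in mature embryos. Zygotes stood 521-fold above mature embryos (log2 change -9.05, SE 0.48, limma adjusted p = 1.28e-09). On the log2 scale most of that fall came after the torpedo stage: 5.72-fold from torpedo to bent (log2 change -2.48, SE 0.48, limma adjusted p = 0.00173) and 17.4-fold from bent to mature (log2 change -4.07, SE 0.48, limma adjusted p = 4.39e-06). In normalised reads most of the loss came earlier, as the stage mean went from 67584 in zygotes to 12911.5 in torpedo embryos. The fall from zygote to octant (log2 change -1.22, limma adjusted p = 0.0408) did not pass without zygote replicate 1 or 2 (0.122 each), octant replicate 1 (0.0533) or octant replicate 2 (0.222), but was -2.36 after median-centring (0.000723). From globular to heart the log2 change of -0.97 did not pass (limma adjusted p = 0.132), and it was -1.79 after median-centring (0.0105).

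APX6 (AT4G32320), a form studied in seeds and ageing leaves, took another course, with its highest value in a single heart library. Its normalised reads were 194 and 175 in zygotes, 365 and 295 in octant, 395 and 593 in globular and 2484 and 865 in heart embryos. They were 561 and 425 in torpedo, 338 and 305 in bent and 889 and 558 in mature embryos. Heart and mature libraries overlapped, as did mature and globular, and the zygote libraries were lowest. Mature embryos stood 3.92-fold above zygotes (log2 change 1.91, SE 0.45, limma adjusted p = 0.00171). The rise into the heart stage (log2 change 1.59, limma adjusted p = 0.0142) was 0.83 without heart replicate 1 (0.211), did not pass without globular replicate 1 (0.0965), and was 0.77 after median-centring (0.242). The fall out of it (log2 change -1.58, limma adjusted p = 0.0194) was -0.82 without heart replicate 1 (0.253) and did not pass without torpedo replicate 1 (0.0567) or 2 (0.128). The rise from bent to mature (log2 change 1.12, limma adjusted p = 0.0445) did not pass in 11 of 25 alternatives, among them leaving out mature replicate 1 (0.252) or bent replicate 1 (0.0952) or 2 (0.136), or either library of the zygote, octant or torpedo stage (0.0548 to 0.0569). It was 2.51 after median-centring (limma adjusted p = 0.000282).

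Per kilobase of exon, APX1 exceeded APX6 by 234 and 263 times in zygotes, by 59.8 and 33.5 times in globular embryos and by 5.97 and 3.41 times in bent embryos. In mature embryos APX1 stood at 0.0679 and 0.207 times APX6, so that the order of both transcripts was turned. The ratio differed over the stages (exact permutation test, p = 0.000163, adjusted p = 0.000244).

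CSD1 (AT1G08830), the cytosolic copper/zinc superoxide dismutase, fell over development as APX1 did. It had 13468 and 9273 normalised reads in zygotes, 3793 and 5752 in octant, 3978 and 5657 in globular and 1166 and 1587 in heart embryos. It had 3359 and 2869 in torpedo, 1052 and 549 in bent and 163 and 314 in mature embryos. Octant and globular libraries overlapped, and no other neighbours in the order of stage means did. Zygotes stood 47.7-fold above mature embryos (log2 change -5.60, SE 0.43, limma adjusted p = 3.85e-08). CSD1 fell from zygote to octant (log2 change -1.26, limma adjusted p = 0.0210), from globular to heart (-1.80, 0.00539), from torpedo to bent (-2.02, 0.00317) and from bent to mature (-1.73, 0.00281). The first of these did not pass without zygote replicate 1 (limma adjusted p = 0.151) or octant replicate 1 (0.154), the second without heart replicate 1 (0.0536) and the third without bent replicate 2 (0.0536). The last was -0.35 after median-centring (limma adjusted p = 0.450), and did not pass in edgeR (adjusted p = 0.111) or DESeq2 (0.05995). In edgeR the fall from torpedo to bent did not pass either (adjusted p = 0.0522). From heart to torpedo the log2 change of 1.19 did not pass (limma adjusted p = 0.0550), and it passed without bent replicate 1 (0.0427) or 2 (0.0428) and without mature replicate 1 (0.0368) or 2 (0.0365). Stage means of CSD1 and APX1 had a Pearson correlation of 0.949 over the 7 stages on the log2(value + 4) scale, in the same libraries. The annotated span of CSD1 overlaps the opposite-strand gene AT1G08840 by 211 bases, and that gene had stage means between 12.8 and 348. Of the 50-base stretches in CSD1 exons, 0.0% also lay in exons of another gene, beside 14.8% for 2-Cys Prx A. The part of AT1G08840 in the CSD1 values was not tested.

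GR1 (AT3G24170), a cytosolic and peroxisomal glutathione reductase, was low in zygotes and in mature embryos and high between. Its normalised reads were 29.1 and 35.4 in zygotes, 617 and 901 in octant, 355 and 205 in globular and 621 and 455 in heart embryos. They were 1204 and 887 in torpedo, 1368 and 1072 in bent and 81.4 and 97.8 in mature embryos. Every mature library lay above both zygote libraries and below all others, while octant, heart, torpedo and bent libraries overlapped with a neighbour. The octant rise was 23.5-fold (log2 change 4.38, SE 0.39, limma adjusted p = 2.32e-06) and remained 3.23 after median-centring (5.43e-06). The fall from bent to mature was 13.6-fold (log2 change -3.70, SE 0.39, limma adjusted p = 1.46e-06), and mature embryos stood 2.78-fold above zygotes (log2 change 1.37, limma adjusted p = 0.00578). The fall from octant to globular (log2 change -1.45, limma adjusted p = 0.00835) did not pass without octant replicate 2 (0.0930) or globular replicate 2 (0.0874), and was -0.66 after median-centring (0.162). The rise to the heart stage did not pass (log2 change 0.97, limma adjusted p = 0.0650), but did without globular replicate 1 (0.0366). The octant rise and the globular fall of GR1 coincided with the rise and fall of the summed seed coat markers, in which INO did not rise at the octant step. The part of seed coat RNA was not tested. GR1 shares up to 74 bases with its neighbours AT3G24160 and AT3G24180, which lie on the opposite and on the same strand.

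Counted over the 9 genes, the direction of the early steps depended on the scaling. On the deposited scale, from zygote to octant 4 rose and 2 fell, where 44.7% of all tested genes rose and 13.1% fell. At the globular step 0 rose and 3 fell, where 7.02% of all tested genes rose and 31.5% fell. At the heart step 3 rose and 2 fell (27.7% and 6.90% of all tested genes), and at the torpedo step 4 rose and 1 fell (16.3% and 9.17%). From torpedo to bent 1 rose (PER1) and 3 fell (5.46% and 22.0%). At the last step 2 rose and 6 fell, where 18.2% of all tested genes rose and 40.1% fell. In mature against zygote embryos 5 rose and 3 fell (29.6% and 35.6%). After median-centring the octant step had 2 rises and 3 falls, where 21.2% of all tested genes rose and 29.4% fell. The octant falls included PER1, on 4 and 7 reads in zygote and 6 and 3 in octant libraries. The globular step then had 3 rises (PER1, 2-Cys Prx B and APX6) and 1 fall (CAT2), beside 17.3% and 15.2% of all tested genes. That PER1 rise set 6 and 5 reads in globular against 6 and 3 in octant libraries. It did not pass on the deposited scale (limma adjusted p = 0.256). The centred heart step had 1 rise and 3 falls (9.83% and 17.2%). The torpedo step kept 4 and 1 (10.5% and 16.7%). Centred counts were 2 and 2 at the bent step (9.93% and 9.28%), 2 and 4 at the mature step (43.7% and 21.9%), and 5 and 3 in mature against zygote embryos (35.3% and 31.0%). Of the 39 calls, 20 passed in all alternatives run.

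**Figure D4:**
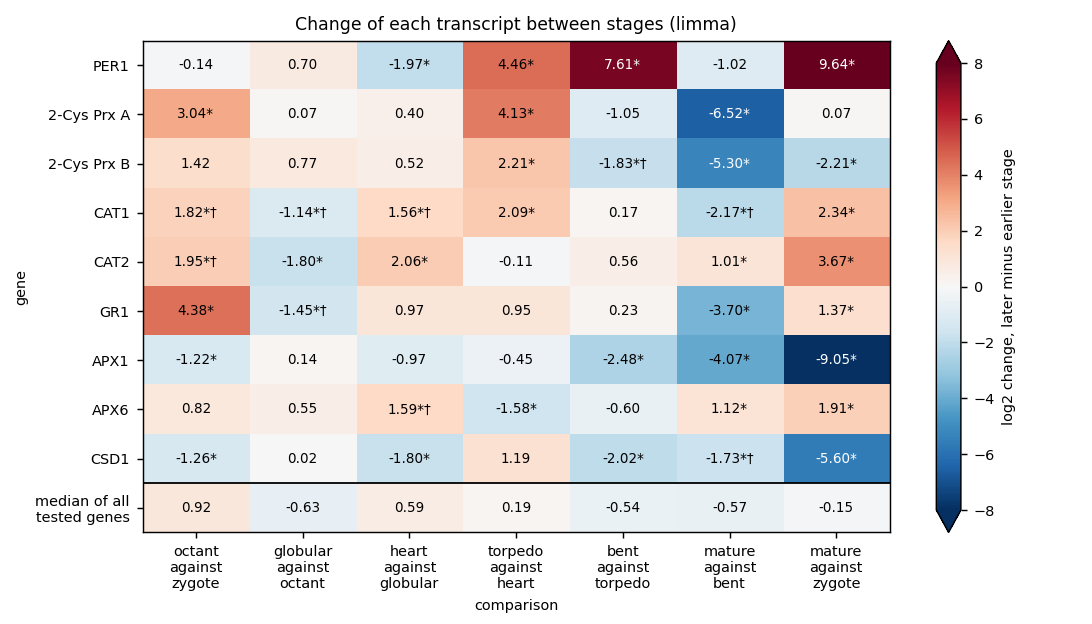
Log2 change (limma, later minus earlier stage) of each of the 9 genes in 7 comparisons, with the median of all tested genes in the bottom line. An asterisk marks an adjusted p under 0.05 and a dagger a call that did not pass after median-centring; colours saturate at 8 in either direction. PER1 changed by 7.61 from torpedo to bent, and 2-Cys Prx A by -6.52 from bent to mature.

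Other genes of hydrogen peroxide and superoxide turnover were followed in 8 lists, the catalases having no further gene in the table. Of these lists, 1 held enzymes that produce hydrogen peroxide or superoxide rather than remove them (12 genes in the table, 10 tested). All counts of the other antioxidant genes given below include that list. Without the 9 genes above, the lists held 61 genes in the table, of which 55 passed the filter. From zygote to octant 24 of the 55 rose and 4 fell, where 44.7% of all tested genes rose and 13.1% fell. At the globular step 2 rose and 20 fell (7.02% and 31.5% of all tested genes), and at the heart step 18 rose and 3 fell (27.7% and 6.90%). These splits became 10 against 14, 9 against 10 and 8 against 9 after median-centring. The shares of all tested genes were then 21.2% against 29.4%, 17.3% against 15.2% and 9.83% against 17.2%. At the torpedo step 13 rose and 3 fell (16.3% and 9.17% of all tested genes), and 7 and 6 did after median-centring (10.5% and 16.7%). At the bent step 5 rose and 13 fell (5.46% and 22.0%), and 9 and 6 did after median-centring (9.93% and 9.28%). From bent to mature 14 rose and 25 fell (18.2% and 40.1% of all tested genes), with a median log2 change of -0.70, beside -0.57 over all tested genes. After median-centring 25 rose and 16 fell, beside 43.7% and 21.9% of all tested genes. The direction of these lists as a whole thus depended on the scaling, and the genes named next kept theirs after median-centring unless stated.

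The transcripts that stood high in mature embryos came from several lists. GPX6, a glutathione peroxidase, had 1478 and 1041 normalised reads in bent embryos and 32324 and 31734 in mature embryos (log2 change 4.69, limma adjusted p = 6.76e-08). GALDH, a dehydrogenase of ascorbate synthesis, went from 2147 and 1765 to 11928 and 11446 (log2 change 2.58). Both genes overlap a neighbour in the annotation, and their values are uncertain to that extent. CCS, the copper chaperone that loads the copper/zinc dismutases, had 369.7 and 326 in bent embryos and 4204 and 3895 in mature embryos (log2 change 3.53), and the 3 dismutases it loads did not move alike. CSD1 fell over the same step on the scale as deposited, CSD3 rose from 348 and 277 to 2567 and 1707 (log2 change 2.74, limma adjusted p = 3.26e-05), and CSD2 did not pass (1.10, 0.0874; 2.48 after median-centring). CSD3 overlaps neighbouring genes. MSD1, the mitochondrial manganese dismutase, rose by 2.17 on the log2 scale and PRXIIF, the mitochondrial peroxiredoxin, by 1.60. Not all of these stood highest at maturity. The mature stage means of MSD1 (15185) and PRXIIF (7830) did not exceed their octant means (20295 and 7960). CCS had a stage mean of 4050 at maturity and 4102 in zygotes. ACX3, an acyl-CoA oxidase that releases hydrogen peroxide during fat breakdown, went from 718 and 742 to 7999 and 3945 (log2 change 2.94). Among tocopherol genes, VTE1 (tocopherol cyclase) rose at the bent step, from 597 and 456 to 4025 and 3180.2 (log2 change 2.77, limma adjusted p = 0.000857). The tocopherol list as a whole did not follow VTE1. From bent to mature 1 of its 6 tested genes rose and 3 fell, where 18.2% of all tested genes rose and 40.1% fell. VTE2 went from 3627 and 2335 in bent to 65.7 and 105 in mature embryos.

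Other listed genes fell at the last step, as the 2-cysteine peroxiredoxins did. Not every chloroplast enzyme fell: GPX1 (log2 change 1.74, limma adjusted p = 0.00356) and GPX7 (2.95, 0.00147) rose, and FSD3 (-0.57, 0.332) and DHAR3 (-0.52, 0.226) did not pass. Centring subtracts -1.38 at this step, so the changes of FSD3 and DHAR3 turn upward. GPX7 was low, with 0 and 21.5 normalised reads in bent and 82.9 and 66.5 in mature embryos. PRXQ, another thioredoxin-dependent chloroplast peroxiredoxin, had 796 and 1345 normalised reads in heart, 7012 and 15017 in torpedo, 14234 and 4271 in bent and 40.7 and 199 in mature embryos. It rose at the torpedo step (log2 change 3.31, limma adjusted p = 0.00397) and fell at the last (-6.36, 2.88e-06). FSD1, an iron superoxide dismutase, had 10221 and 6823 in bent embryos and 12.5 and 143 in mature embryos (log2 change -7.41, limma adjusted p = 6.31e-07). NTRC, the reductase that feeds 2-Cys Prx, rose by 1.41 on the log2 scale at the torpedo step and fell by 1.85 at the last step, and neither passed after median-centring. MDAR1, a monodehydroascorbate reductase, went from 984 and 386 to 6.26 and 26.4 over the last step (log2 change -5.14), and GOX1, a photorespiratory glycolate oxidase, from 2868 and 1064 to 21.9 and 59.7 (-5.43). GPX7, NTRC and GOX1 each overlap a neighbouring gene, and their values are uncertain to that extent.

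**Figure D5:**
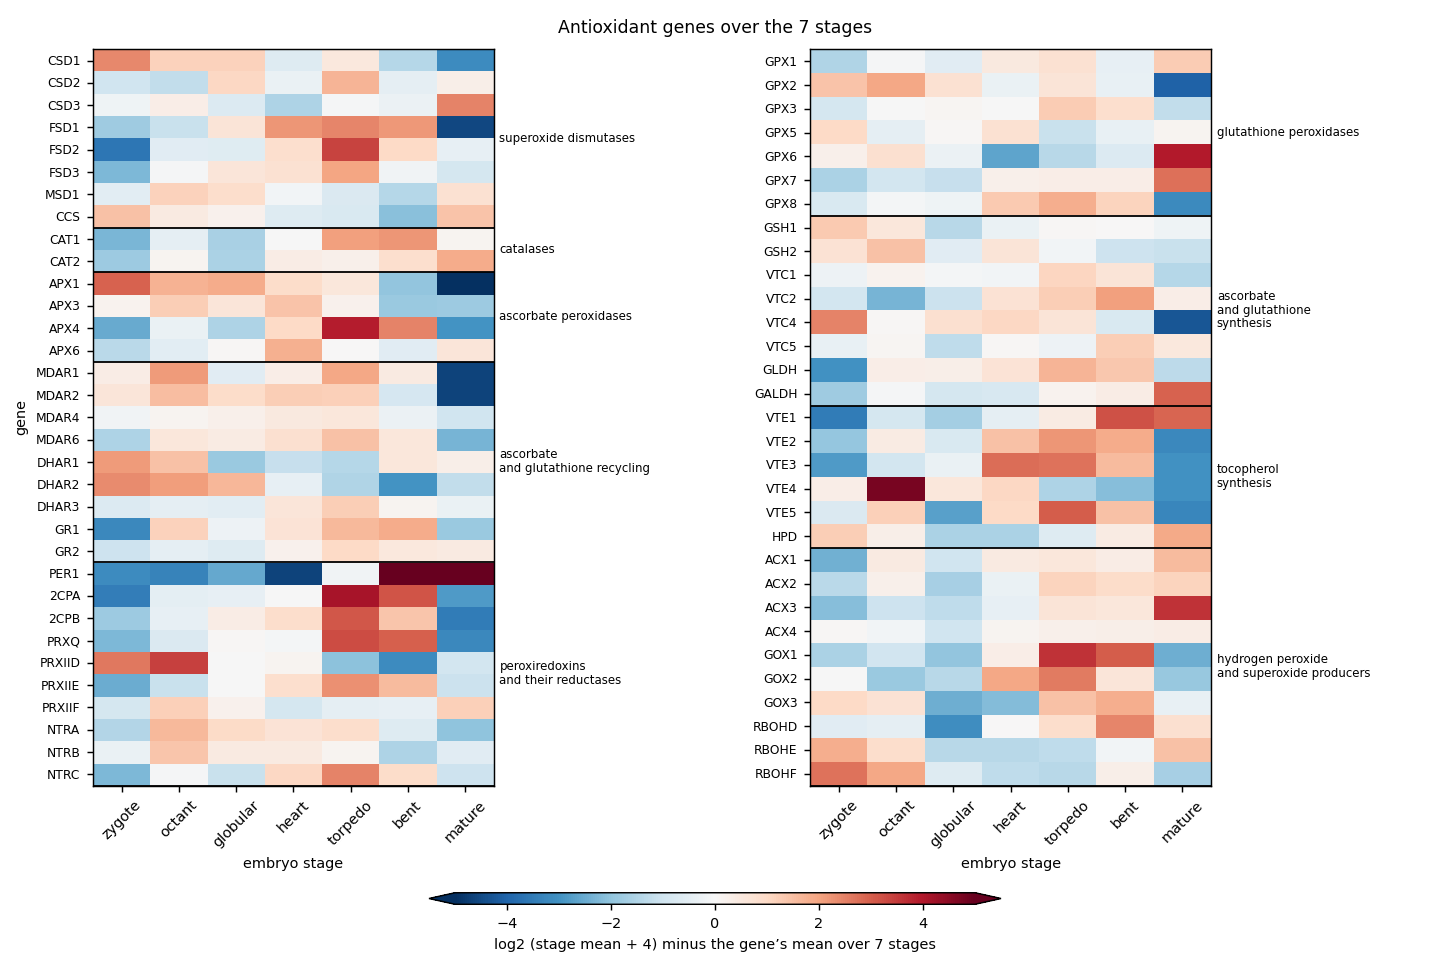
Log2 (stage mean + 4) of each listed gene minus its own mean over the 7 stages, by embryo stage, in 9 groups of enzymes that include the 9 genes above; colours saturate at 5 in either direction. Peroxiredoxins 2CPA (2-Cys Prx A), 2CPB (2-Cys Prx B) and PRXQ have their highest stage mean at the torpedo stage, and PER1, GPX6 and GALDH are high at maturity.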

How the data were processed

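Per the file headers the deposited columns are counts. Each library's values summed to 20000000 and were whole multiples of a single read for 100% of values, so the authors had scaled the read counts to equal totals (a normalised signal). Per the submitters' processing notes the tools were CASAVA, Trimmomatic, FastQC, STAR, HTSeq and DESeq2 with genome build TAIR10, with no role or version stated there. Per the labels' protocols RNA was amplified before TruSeq library preparation, and no molecular identifiers are named.

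The tests covered genes that reached a value of 10 in at least 2 libraries. They were made with limma 3.58.1 (R 4.3.3, trend) on log2(value + 4), with stage as the only term; edgeR 4.0.16 and DESeq2 1.42.0 on the recovered reads were alternatives. CAT3 was not analysed here, so 3 of 5 planned ratios were tested and adjusted over 3. Named genes were the members, the listed genes, and the 5 genes most alike PER1 and 3 each for CAT1 and CAT2. For CAT1 these were AT4G33690, Lhca5 and AT3G56750, and for CAT2 AT5G23110, AT1G20110 and AT5G35690. The members and lists were chosen with earlier results of these data known. The scripts were tested on simulated data. With 2 libraries per stage, p-values measure the spread between these libraries.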

Additional observations from a re-analysis of the deposited data

How the results depend on the processing

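Over the 63 changes of the 9 genes and their alternatives, 1453 values kept the call of the main analysis, 88 lost a call, 30 gained one and 1 reversed: 2-Cys Prx A in mature against zygote embryos, -1.39 without mature replicate 2 and 1.53 without mature replicate 1. The cause was not tested. At the globular step the 3 called members became 1 with upper-quartile scaling and 1 in edgeR. By coding length the CAT2 share was 84.05% at the octant, 50.38% at the torpedo and 57.13% at the bent stage, against 81.14, 45.33 and 52.09% by exon length. On the recovered reads, edgeR called 3202 (torpedo to bent) to 12255 genes (zygote to mature) and DESeq2 3605 to 11957, against 5149 and 12228 by limma in these 2 comparisons. Leaving out a library gave 4 to 7, 1 to 3, 2 to 5, 3 to 6, 2 to 4 and 6 to 9 called members at the 6 steps, 8 to 9 for mature against zygote and 9 over the stages. The other antioxidant genes called ranged over 21 to 29, 14 to 25, 14 to 25, 8 to 18, 7 to 22, 33 to 40 and 31 to 40. The family ratios kept their calls without any one library (exact permutation, adjusted over 3 ratios). The ratio tests without an added constant were chosen after seeing the data and kept all 3 calls.

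Replicate numbers were not treated as a pairing in the main fit. Over 21 pairs of stages the correlation of same-numbered deviations ran from -0.111 to 0.299, and 3 exceeded the limit of 0.1 set for this check. A structure shared by same-numbered libraries is thus not excluded. With the replicate block 6, 3, 5, 5, 4 and 8 members were called at the 6 steps, and no member call changed. Depth limits PER1 before the torpedo stage, where 3 reads or fewer cannot be told from 0.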
